A study of Arabidopsis thaliana with 12 samples.

Results

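The comparison described here was made inside the dexamethasone arm of a time course in root explants, between explants treated with dexamethasone for the last 24 h and explants treated for the last 6 h of a common incubation. Its members were the 4 libraries whose labels give dexamethasone for 24 h (replicates A and B) or for 6 h (replicates A and B), out of 12 libraries in all. The labels call the tissue callus. All explants were of the *Arabidopsis thaliana* accession Landsberg *erecta* (given as L.er, with no mutation beside the transgene) and carried the transgene 35S:LFY-GR. In it the viral 35S promoter, which is active in most cells of the plant, drives the transcription factor LEAFY (LFY) fused to the ligand binding part of a mammalian glucocorticoid receptor. Roots of 3-week-old seedlings were kept on callus inducing medium with auxin and cytokinin for 5 days, with 5 µM dexamethasone or with mock solution for the last 1, 6, or 24 h. Since all explants were harvested at the end of the same incubation, the 24 h and the 6 h group had the same age and differed in when the steroid was added. Mock explants of 24 h and 6 h, 2 libraries each, are given beside the results as the background of the same interval without the steroid.

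LFY is a transcription factor that sets floral fate. It activates floral identity genes such as *AP1* in the shoot, and the fusion protein stays in the cytoplasm until a steroid ligand releases it into the nucleus. Auxin in callus inducing medium makes the cells that lie next to the xylem pole of the root divide as they do when a lateral root is founded, so that the explant holds root, vascular and callus cells. Flavonoids are made from phenylalanine by the phenylpropanoid pathway, which also feeds lignin, the polymer of xylem walls. Chalcone synthase, encoded by *TT4*, commits the pathway to flavonoids, chalcone isomerase (*TT5*) closes the ring, and flavonol synthase (*FLS1*) makes flavonols. The regulators MYB11 and MYB12 activate these enzyme genes.

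The 24 h libraries held 18511462 and 22524621 reads counted on genes, against 64500029 to 66789371 in the 6 h libraries, so that depth and time point cannot be told apart in these 4 libraries. Reads that mapped to several places were not counted on genes. Of the reads tallied, they made up 11.7% in library A and 6.90% in library B of 24 h, against 12.8% in library A and 11.5% in library B of 6 h. With genes of low counts removed, 20355 genes were tested by edgeR's quasi-likelihood test, and a call required an adjusted *p* (Benjamini-Hochberg) under 0.01. At this threshold 8089 genes were called (39.7%), 3915 higher at 24 h (19.2%) and 4174 lower (20.5%). Most of these changes were small. In 50.6% of the called genes the log2 fold change was under 0.5 in size, and with a further minimum of 1 on the size of the log2 fold change, 379 genes rose (1.86%) and 1270 fell (6.24%). The biological coefficient of variation was 0.0384, against 0.113 in the corresponding mock libraries, a smaller spread between libraries of a group. In the mock arm 2314 of 20199 genes (11.5%) passed the same test between 24 h and 6 h, 1002 higher (4.96%) and 1312 lower (6.5%). The median size of the log2 fold change was similar, 0.287 in dexamethasone and 0.255 in mock. The 6 h mock libraries A and B differed from each other by a median of 0.160 on the log2 scale, against 0.0475 for 6 h dexamethasone. The counts of calls in the 2 arms therefore do not compare the size of their changes. With the counts of all libraries drawn down at random to the smallest total, 6810 genes were called in dexamethasone, and without the 6 h library B 5269 were. In 1 fit with the mock libraries 4742 genes were called, and in 1 fit of all 12 libraries 3763. A change that differed between the arms, by an interaction test over the 8 libraries, was found for 1228 of 20684 genes (5.94%), 424 higher in dexamethasone (2.05%) and 804 lower (3.89%). Genes are described by CPM, the counts scaled to library size with TMM factors, given for libraries A and B of each time point in turn, and log2 fold changes (24 h over 6 h) are given with their SE. The SE was derived as the size of the log2 fold change over the square root of the test's F statistic. With 2 libraries per group, F rests on each gene's own spread, drawn towards the trend of all genes. The CPM of the 2 time points did not overlap for 76.7% of all genes tested, so that separation alone is no mark of a gene. In the same way, counts of list members called stand against 19.2% higher and 20.5% lower among all genes tested. In this bulk RNA, fewer cells of a type and less RNA per cell cannot be told apart.

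The 250 bases before the transcription start of 5 genes are shown first. The 2 floral and 3 flavonoid pathway genes were picked, after the matches were seen, from the study's loci and the 10 largest rises and falls, because the results turn on them and their windows hold an element that LFY, HY5 or MYB factors are known to bind. They were read from the RefSeq annotation of TAIR10.1 and run 5′ to 3′ towards the start, with matches in capitals. The LFY core motif CCANTGG (N is any base), the G-box CACGTG, which bZIP factors such as HY5 bind, and the MYB element ACCTACC were searched on both strands.
AP1: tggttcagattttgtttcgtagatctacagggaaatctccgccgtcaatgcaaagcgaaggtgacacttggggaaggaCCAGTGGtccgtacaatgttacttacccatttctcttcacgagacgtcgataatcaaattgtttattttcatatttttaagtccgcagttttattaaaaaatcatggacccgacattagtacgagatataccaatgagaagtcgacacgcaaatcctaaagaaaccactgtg
LSH2: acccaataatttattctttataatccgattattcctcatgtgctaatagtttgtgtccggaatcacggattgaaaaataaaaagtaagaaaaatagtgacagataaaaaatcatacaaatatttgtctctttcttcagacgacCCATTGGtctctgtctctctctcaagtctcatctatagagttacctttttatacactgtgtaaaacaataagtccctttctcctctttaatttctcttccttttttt
TT4: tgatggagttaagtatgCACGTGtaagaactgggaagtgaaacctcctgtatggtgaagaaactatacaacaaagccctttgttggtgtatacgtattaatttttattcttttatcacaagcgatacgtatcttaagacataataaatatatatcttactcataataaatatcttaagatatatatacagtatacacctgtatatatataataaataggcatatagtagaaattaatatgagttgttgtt
CHIL: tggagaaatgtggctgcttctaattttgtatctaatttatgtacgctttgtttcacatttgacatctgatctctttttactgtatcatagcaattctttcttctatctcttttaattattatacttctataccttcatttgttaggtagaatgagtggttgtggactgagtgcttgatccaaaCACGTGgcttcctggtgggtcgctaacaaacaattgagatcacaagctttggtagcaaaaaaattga
4CL3: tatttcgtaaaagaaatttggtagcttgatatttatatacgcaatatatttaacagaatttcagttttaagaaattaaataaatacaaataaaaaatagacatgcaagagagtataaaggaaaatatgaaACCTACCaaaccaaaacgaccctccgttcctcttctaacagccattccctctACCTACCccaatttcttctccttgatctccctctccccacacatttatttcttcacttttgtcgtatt
The *AP1* window (chr1:25986350-25986599 on the minus strand) holds 1 LFY core, 172 to 166 bases before the start, and that of *LSH2* (chr3:1216959-1217208 on the minus strand) 1, which begins 107 bases before it. *TT4* (chr5:4488226-4488475 on the plus strand) and *CHIL* (chr5:1563036-1563285 on the plus strand) each hold 1 G-box, at 233 to 228 and at 67 to 62 bases before the start. *4CL3* (chr1:24171636-24171885 on the minus strand) holds the MYB element at 120 to 114 and again at 68 to 62 bases before the start. Of the same loci and largest changes, *GA2OX4* and *AT4G14730* hold 1 G-box each and *PP2-B14* 1 LFY core, and their windows are not shown. Over the 250 bases before 27443 protein-coding genes, 3.06% held the LFY core, 6.49% the G-box and 1.16% the MYB element. Among the 334 promoters of genes that rose by a log2 fold change of at least 1, these shares were 3.29%, 6.89% and 2.69%, and among the 1151 of genes that fell as much, 2.69%, 6.52% and 1.3%. Of the 12 tested members of the list of flavonoid enzymes and regulators described below, 2 (16.7%) held the G-box and 0 the MYB element. *CHIL* and *4CL3* are outside that list. A match is a description of the letters and shows no binding.

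Floral genes were among the 10 largest rises of all genes that averaged 50 reads or more, namely *TFL1*, *AP1* and *HB51*. Of 27 floral meristem and flower genes, 15 were expressed highly enough to be tested, and of these 8 rose and 3 fell, with a median log2 fold change of 0.41, against -0.002 over all genes tested. In mock, 1 of the 12 tested there rose, *LFY*, and none passed in the other direction. *AP1*, the MADS-box gene that gives floral meristem identity, had 15.6 and 10.2 CPM in the 24 h libraries, against 0.771 and 0.847 CPM in the 6 h libraries. Both 24 h libraries lay above both 6 h libraries, by a log2 fold change of 3.98 ± 0.23 (edgeR adjusted *p* = 6.67e-08), while mock libraries held 4 and 1 reads at 24 h and 21 and 19 at 6 h. *TFL1*, which keeps the inflorescence meristem from becoming a flower and opposes *AP1*, had 15.3 and 12.2 CPM at 24 h and 0.231 and 0.327 CPM at 6 h. Its rise of 5.59 ± 0.23 on the log2 scale (edgeR adjusted *p* = 4.83e-09) was larger than that of *AP1*, and no read of *TFL1* was counted in the 4 mock libraries of 24 h and 6 h. *HB51*, known as LMI1, a homeodomain leucine zipper gene that acts with LFY on floral fate, had 6.75 and 4.42 CPM at 24 h, against 0.432 and 0.490 CPM at 6 h, a rise of 3.58 ± 0.28 (edgeR adjusted *p* = 9.85e-07). *LSH2*, a gene of the ALOG family of nuclear proteins, had few reads, 28 and 50 at 24 h and 10 and 5 at 6 h in libraries of greater depth, and rose by 4.03 ± 0.46 on the log2 scale (edgeR adjusted *p* = 1.87e-05). The floral organ identity cofactor *SEP2* had 40 and 23 reads at 24 h against 26 and 18 at 6 h and rose by 2.22 ± 0.44 (edgeR adjusted *p* = 0.00123). Leaving out 1 library ended calls, without the 6 h library B for *SEP2* (0.0237) (edgeR adjusted *p*).

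Reads of *LFY* come from the transgene and the endogenous gene together. They had 949.9 and 833 CPM at 24 h, against 275 and 267 CPM at 6 h, a rise of 1.72 ± 0.05 on the log2 scale (edgeR adjusted *p* = 6.93e-10). In mock, where *LFY* had 612 and 554 CPM at 24 h and 309 and 418 CPM at 6 h, it rose by 0.67 (edgeR adjusted *p* = 0.00779). Both 24 h dexamethasone libraries lay above the 6 h dexamethasone libraries and above all 4 mock libraries. *FD*, a bZIP partner of florigen, had 19.97 and 17.5 CPM at 24 h and 12.1 and 11.4 CPM at 6 h and rose by 0.67. *PI*, a class B floral organ gene, rose by 0.41 with 21.98 and 21.1 CPM against 16.7 and 15.6 CPM. Among the falls was *AGL20*, known as SOC1, which integrates flowering signals upstream of LFY, with 3.48 and 2.91 CPM at 24 h against 8.47 and 6.91 CPM at 6 h, a log2 fold change of -1.28 ± 0.17 (edgeR adjusted *p* = 7.72e-05). The related MADS-box genes *AGL42* (-0.98) and *AGL17* (-0.68) fell too. *SVP*, a repressor of flowering (-0.17), *PAN* (-0.09), *AGL12* (0.38) and *MYB17* (-0.24, with 7 and 18 reads at 24 h and 47 and 48 at 6 h) did not pass the test. The 12 members that were too low to test include *UFO*, *CAL*, *SEP3*, *AG*, *AP3* and *FT*. Their reads ranged between 0 and 17 per library. Calls did not hold without the 6 h library A for *AGL17* (0.0187), without the 6 h library B for *AGL17* (0.0432) and *PI* (0.0328), and without the 24 h library A for *AGL17* (0.0143) (edgeR adjusted *p* in parentheses).

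**Figure D1:**
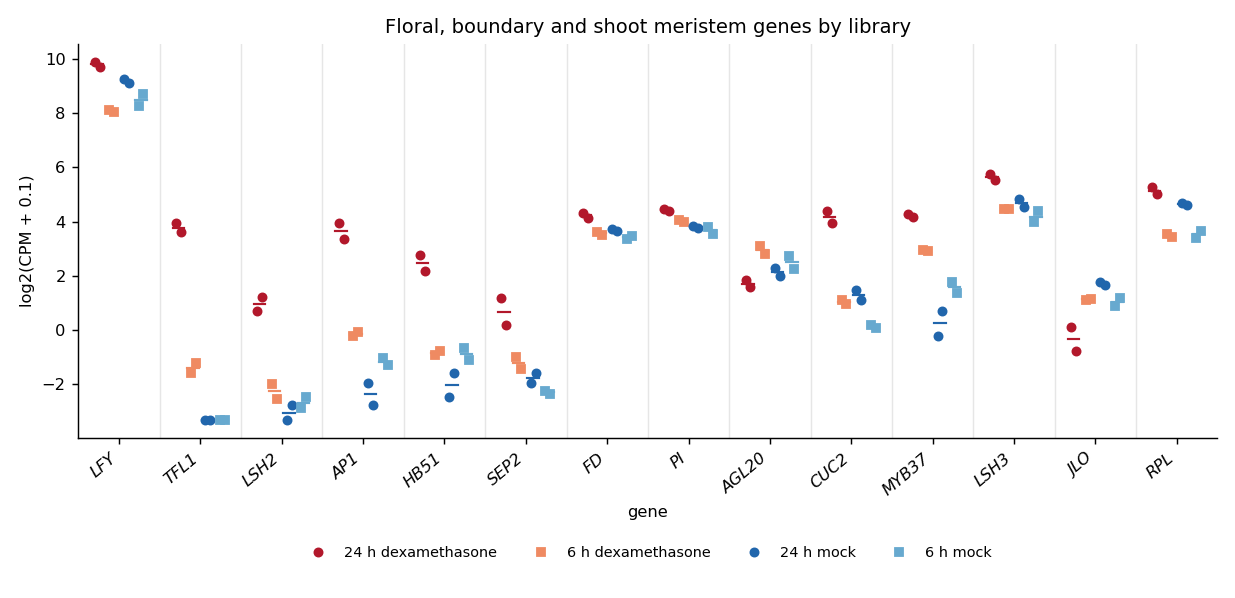
Level of 14 floral, boundary and shoot meristem genes in each library, as log2 of CPM plus 0.1, with 2 points per group for libraries A and B and a line at their mean. The 24 h dexamethasone libraries lie above the 6 h dexamethasone libraries for every gene plotted except *AGL20* and *JLO*, where they lie below, and *TFL1* has no reads in mock.

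Genes that mark organ boundaries and start axillary meristems moved in both directions. Of 13 tested of 18, 5 rose and 2 fell, with a median of 0.40 in dexamethasone and 0.50 in mock. *CUC2*, a NAC factor that sets organ boundaries, had 20.8 and 15.3 CPM at 24 h and 2.04 and 1.83 CPM at 6 h, and rose by 3.22 ± 0.17 on the log2 scale (edgeR adjusted *p* = 3.15e-08). Its change in mock was 1.26 (edgeR adjusted *p* = 0.0254). *MYB37*, known as RAX1, which promotes the formation of axillary meristems, had 19.6 and 18.0 CPM at 24 h, against 7.68 and 7.40 CPM at 6 h, a rise of 1.31 ± 0.10 (edgeR adjusted *p* = 5.92e-07). In mock it had 0.762 and 1.55 CPM at 24 h and 3.33 and 2.498 CPM at 6 h, so that the 2 dexamethasone groups both lay above all mock libraries. *LSH3*, another boundary gene of the ALOG family, rose by 1.17, *BOP2*, a boundary gene that acts with LFY, by 0.77, and the GRAS gene *LAS*, needed for axillary meristems, by 0.30. *JLO*, a boundary gene of the LBD family, had 0.979 and 0.492 CPM at 24 h and 2.08 and 2.14 CPM at 6 h and fell by 1.56 on the log2 scale (edgeR adjusted *p* = 0.00176), and *RAX2* changed by -0.70. The other 6 tested members did not pass, among them *CUC1* with 12 and 8 reads at 24 h and 10 and 4 at 6 h. The call was lost without the 6 h library A for *LAS* (0.0330), *RAX2* (0.0332) and *JLO* (0.0127), without the 6 h library B for *LAS* (0.127), *RAX2* (0.0103) and *JLO* (0.0182), and without the 24 h library B for *LAS* (0.0172) and *RAX2* (0.0359), with the edgeR adjusted *p* in parentheses.

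Of 18 shoot meristem genes, 11 were tested, 5 rose and 2 fell, and in mock 3 rose, *RPL*, *AIL7* and *AIL5* (0.27 in dexamethasone). The median log2 fold change of the list was 0.27 in dexamethasone and 0.48 in mock. By the interaction test, 0 members had a higher and 1 a lower change in dexamethasone. *RPL*, a homeodomain gene that acts with KNOX proteins in the inflorescence, had 38.4 and 32.5 CPM at 24 h, against 11.6 and 10.7 CPM at 6 h, a rise of 1.67 ± 0.09 (edgeR adjusted *p* = 4.74e-08), beside 1.0999 in mock (edgeR adjusted *p* = 4.44e-04). *KNAT1*, a KNOX gene known as BREVIPEDICELLUS, rose by 0.74, the receptor kinase gene *CLV1* by 0.36 and *AIL7* by 0.29. *STM*, which maintains the shoot meristem, had 32 and 11 reads at 24 h and 5 and 2 at 6 h, and its rise of 4.27 ± 0.75 passed the test at this low count. *BLH8*, a partner of KNOX proteins, fell by 1.403 with 19 and 9 reads at 24 h against 128 and 114 at 6 h, and *RR1* fell by 0.18. *WUS* and *CLV3*, which define the stem cells of the shoot, were too low to test. Leaving out 1 library ended calls, without the 6 h library A for *CLV1* (0.147), *BLH8* (0.0826) and *RR1* (0.0650), without the 6 h library B for *CLV1* (0.0531), *BLH8* (0.0261) and *RR1* (0.0531), without the 24 h library A for *CLV1* (0.0119), and without the 24 h library B for *BLH8* (0.0394) (edgeR adjusted *p*).

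Genes for the synthesis of gibberellin and for its inactivation were among the rises. Gibberellin promotes elongation and flowering, GA20-oxidases and GA3-oxidases make its active forms, and GA2-oxidases and the cytochrome P450 CYP714A1 inactivate them. Of 20 synthesis and perception genes tested, 6 rose and 3 fell, and of 6 inactivating enzymes 3 rose and 1 fell, with medians of 0.06 and 0.58. These medians moved with single libraries. That of the inactivating enzymes was 0.025 without the 24 h library A, 0.84 without the 24 h library B and -0.25 without the filter on low counts, and that of the synthesis and perception genes lay between 0.0013 and 0.22 when single libraries were left out. *GA20OX1* had 26.2 and 21.4 CPM at 24 h, against 4.23 and 4.62 CPM at 6 h. Its log2 fold change was 2.42 ± 0.12 (edgeR adjusted *p* = 2.22e-08), beside 0.52 in mock (edgeR adjusted *p* = 0.159). *GA3OX1* had 24.6 and 19.1 CPM at 24 h and 7.66 and 7.39 CPM at 6 h, a rise of 1.53 ± 0.12, and 0.92 in mock (edgeR adjusted *p* = 0.00473). *GA3OX2* had 26.4 and 20.6 CPM against 8.90 and 9.78 CPM, a rise of 1.32 ± 0.12, with -0.32 in mock (edgeR adjusted *p* = 0.207). Among the inactivating enzymes, *GA2OX4* had 138 and 112 CPM at 24 h, against 38.9 and 40.1 CPM at 6 h, and rose by 1.66 ± 0.08 (edgeR adjusted *p* = 1.59e-08), beside a rise of 0.92 in mock. *GA2OX2* rose by 0.96, with 142 and 129 CPM against 69.2 and 70.2 CPM, and *GA2OX6* fell to 10.3 and 10.3 CPM at 24 h, against 17.5 and 15.8 CPM at 6 h, a change of -0.68 ± 0.10 that in mock was 0.65. *CYP714A1* had 37 and 24 reads at 24 h and 9 and 13 at 6 h, a rise of 3.16 ± 0.47 (edgeR adjusted *p* = 1.46e-04). Smaller changes passed the test for the receptor gene *GID1B* (0.48), the DELLA gene *RGL3* (0.47) and *GA3* (0.22), and for the falls of *CYP88A3* (-0.44) and of the gibberellin regulated genes *GASA1* (-0.32) and *GASA4* (-0.52). The other 11 synthesis and perception genes and the inactivating enzyme genes *GA2OX8* (-0.79) and *CYP714A2* (0.20) did not pass. The count of falls on the synthesis side was 1 without the 6 h library A and 5 without the 24 h library A. Calls did not hold without the 6 h library A for *CYP88A3* (0.0177), *GASA1* (0.0351) and *GA3* (0.0393), and without the 6 h library B for *GASA1* (0.0142) and *GA3* (0.0378) (edgeR adjusted *p* in parentheses).

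**Figure D2:**
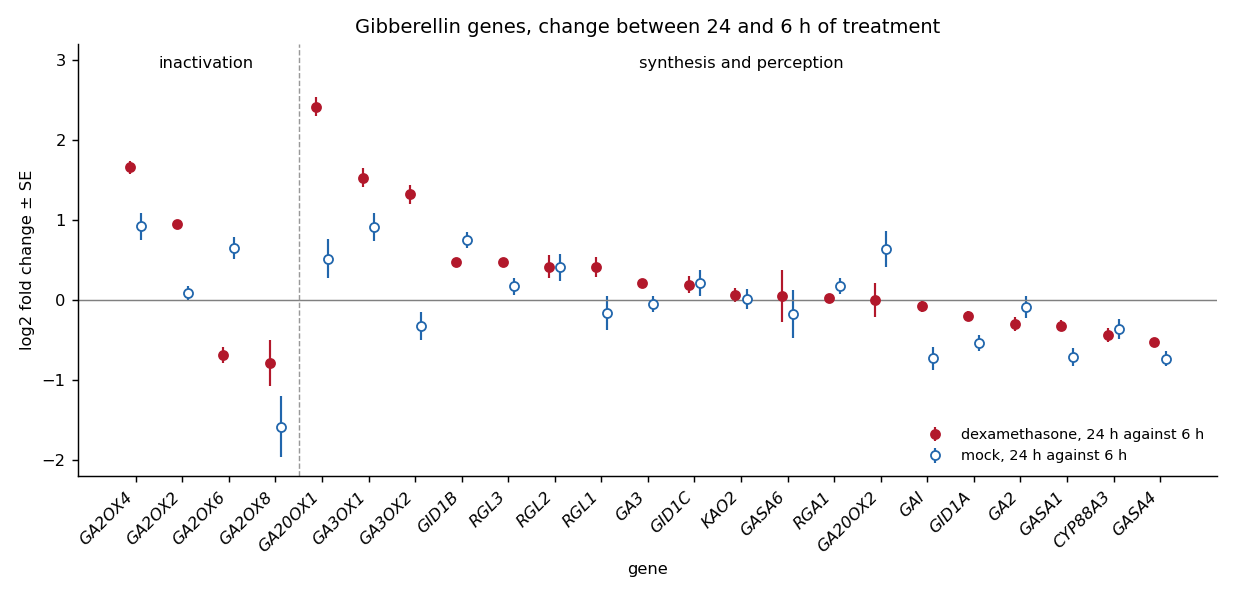
Log2 fold change (24 h over 6 h) with its SE for gibberellin genes that averaged 50 reads or more over the 4 dexamethasone libraries, inactivating enzymes left of the dashed line and synthesis and perception genes right of it. *GA20OX1*, *GA3OX1* and *GA3OX2* lie between 1.32 and 2.42 in dexamethasone, above their mock values.

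Flavonoid genes had the largest share of members called higher at 24 h among the lists examined. These lists were chosen with earlier results of these data known. Of 21 enzymes and regulators, 12 were tested, 10 rose, 9 of them by a log2 fold change of at least 1, and none fell, with a median of 2.04. In mock none rose, 2 fell, *MYB12* and *HY5*, and the median was -0.20. For 9 of the 12, the change differed between the arms by the interaction test. *TT4* had 835 and 729 CPM in the 24 h libraries, against 18.198 and 19.5 CPM in the 6 h libraries, which is 41.5-fold (log2 fold change 5.37 ± 0.07, edgeR adjusted *p* = 1.89e-12). Mock libraries had 35.4 and 28.3 CPM of *TT4* at 24 h and 21.1 and 29.3 CPM at 6 h. *FLS1* had 69.0 and 66.3 CPM at 24 h and 3.05 and 3.02 CPM at 6 h, a rise of 4.48 ± 0.08 (edgeR adjusted *p* = 1.24e-11). *TT5* had 139.5 and 121 CPM at 24 h, against 10.01 and 10.1 CPM at 6 h, a rise of 3.69 ± 0.07 (edgeR adjusted *p* = 4.07e-11). For these 3 genes, both 24 h dexamethasone libraries lay above all 6 h and mock libraries. *CHIL*, which encodes a chalcone isomerase-like protein that aids chalcone synthase, rose more than *TT4*, with 34.4 and 28.8 CPM at 24 h, 0.540 and 0.728 CPM at 6 h and a log2 fold change of 5.63 ± 0.16 (edgeR adjusted *p* = 3.24e-10). *4CL3*, the 4-coumarate:CoA ligase that serves flavonoid synthesis, had 13.8 and 8.27 CPM at 24 h and 0.833 and 1.11 CPM at 6 h, a rise of 3.48 ± 0.26 (edgeR adjusted *p* = 5.32e-07). The largest rise by the same rule belonged to *AT2G22590*, annotated as a UDP-glycosyltransferase, with 185 and 237 reads at 24 h and 0 in both 6 h libraries, at least 456-fold higher when 3 reads are assumed over the 6 h group. It had 0 and 0 reads in the 24 h and 0 and 2 in the 6 h mock libraries.

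Other flavonoid genes are named here after their values were seen. *TT7*, the flavonoid 3'-hydroxylase, had 13.8 and 14.03 CPM at 24 h, against 1.11 and 1.41 CPM at 6 h, a log2 fold change of 3.46 ± 0.16. The flavonol glycosyltransferase genes *UGT78D1* and *UGT78D2* rose by 2.31 and 1.54. Their activators rose as well. *MYB12* had 27.1 and 27.9 CPM at 24 h and 5.81 and 5.32 CPM at 6 h, a rise of 2.31 ± 0.09, while in mock it changed by -1.42 (edgeR adjusted *p* = 0.00404). *MYB11* rose by 1.42, *PAP1* (AT1G56650), a MYB activator of anthocyanin genes, by 1.77 with 30 and 53 reads at 24 h and 30 and 48 at 6 h, and the light signalling gene *HY5* by 0.56. *TTG1* (0.15) and the repressor *MYBL2* (-0.76) did not pass. The late genes that lead to anthocyanin and tannin were at or near 0. *DFR* had 3 and 5 reads at 24 h and none at 6 h, *LDOX* had 2 and 0 reads at 24 h and 1 and 4 at 6 h, and *TT8*, *TT2* and *UGT78D3* had none. *F3H*, an early enzyme between chalcone isomerase and flavonol synthase, had 1 and 0 reads at 24 h and none at 6 h, although the enzyme genes before and after it were high at 24 h. Whether reads of *F3H* were lost before counting was not tested, so that its counts are not read as a lack of expression. *MYB111*, a close relative of *MYB12*, had 0 and 0 at 24 h and 0 and 2 at 6 h. The count of rises in this list was 9 without the 6 h library A and between 10 and 11 when any of the others was left out, and without the 24 h library B 1 member fell. The call was lost without the 6 h library A for *PAP1* (0.0392), with the edgeR adjusted *p* in parentheses.

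**Figure D3:**
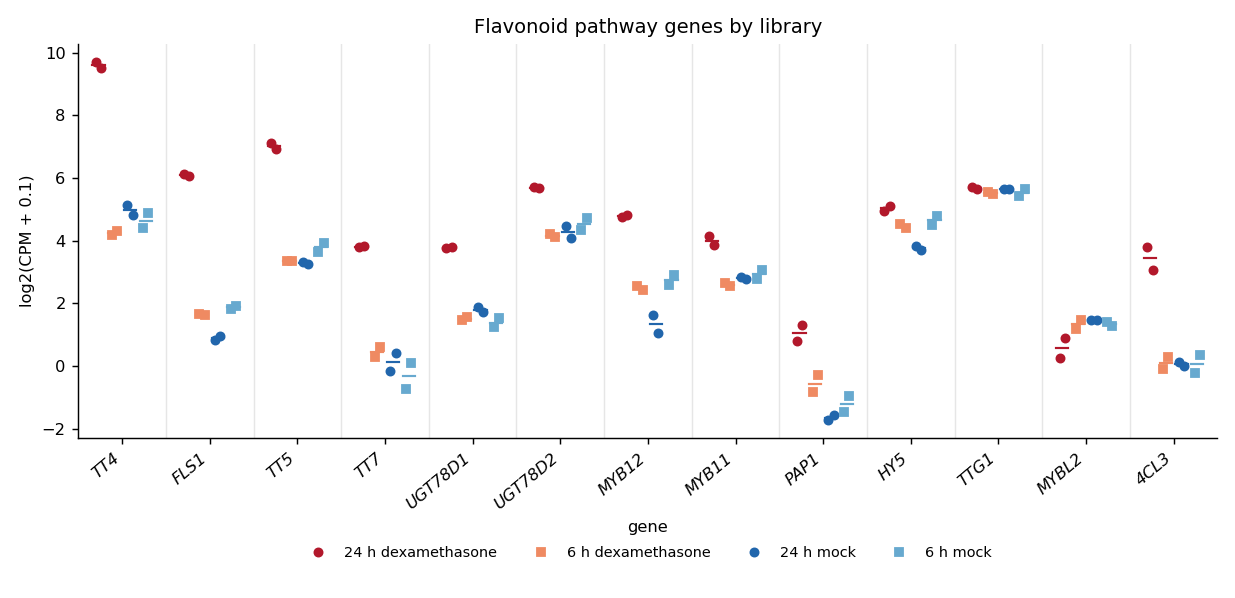
Level of the 12 tested flavonoid genes and of *4CL3* in each library, as log2 of CPM plus 0.1, with points for libraries A and B and a line at their mean. *TT4*, *FLS1*, *TT5* and *TT7* stand apart in the 24 h dexamethasone libraries, and *TTG1* is level across the groups.

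Some genes that act late in lignin formation and some genes of xylem vessels fell. Of 22 phenylpropanoid and lignin genes, all tested, 12 rose, 1 of them (*4CL3*) by a log2 fold change of at least 1, and 6 fell, 4 of them by as much. *FAH1*, ferulate 5-hydroxylase on the branch to syringyl lignin, had 58.7 and 56.9 CPM at 24 h, against 269 and 261 CPM at 6 h, a log2 fold change of -2.198 ± 0.05 (edgeR adjusted *p* = 4.12e-11). Its mock level was 259 and 225 CPM at 24 h and 208 and 273 CPM at 6 h, a change of 0.00. The laccase genes that polymerise lignin fell too. *IRX12*, known as LAC4, had 1.795 and 1.16 CPM at 24 h and 5.98 and 6.21 CPM at 6 h, *LAC17* had 2.72 and 1.83 CPM against 7.70 and 7.80 CPM, and *LAC11*, named after its values were seen, had 5.33 and 5.27 CPM against 18.198 and 16.9 CPM. Their log2 fold changes were -2.07, -1.79 and -1.72, beside -0.01, 0.06 and 0.41 in mock. *4CL2* (0.69) and *CYP98A3* (0.62) had the next largest rises after *4CL3*. At the head of the pathway, *PAL1* (0.52) rose and *C4H* (-0.54) fell, both named after their values were seen.

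Among 23 root vascular markers, 5 rose and 5 fell (21.7% each, near the 19.2% and 20.5% of all genes). The 5 that fell were all genes of xylem. Not every xylem gene of the list was called lower. *XCP1*, a cysteine protease of dying xylem vessels, had 3.65 and 5.01 CPM at 24 h and 31.6 and 28.3 CPM at 6 h, a log2 fold change of -2.77 ± 0.13 (edgeR adjusted *p* = 1.07e-08), beside -0.52 in mock (edgeR adjusted *p* = 0.00776). *XCP2* had 6.64 and 5.45 CPM at 24 h, against 25.5 and 22.8 CPM at 6 h (log2 fold change -2.01 ± 0.11), and *IRX1*, a cellulose synthase of the secondary wall, 3.43 and 3.44 CPM against 9.42 and 9.99 CPM (-1.498 ± 0.14). *VND7*, the NAC factor that starts vessel formation, had 0 and 1 reads at 24 h and 59 and 36 at 6 h, which is 29.3-fold lower (95% exact counting interval 5.13 to 1169), against 23 and 21 reads at 24 h and 26 and 53 at 6 h in mock, and *CESA4* changed by -0.94. Both were named after their values were seen, as were the regulators of secondary walls *MYB46*, with 0.925 and 0.536 CPM at 24 h and 3.67 and 3.28 CPM at 6 h (-2.28 ± 0.28), and *MYB83*, with no read at 24 h and 31 and 19 reads at 6 h, at least 5.14-fold lower. The 5 rises included phloem genes. *SUC2*, the sucrose loader of companion cells, rose by 0.55 and *OPS*, a protophloem gene, by 0.43, and *BHLH32*, known as TMO5, which drives divisions of vascular precursor cells, by 0.95, with rises of 0.73 and 0.85 in mock for *SUC2* and *BHLH32* and 0.26 for *OPS*, which did not pass there. Leaving out 1 library ended calls, without the 6 h library A for *VND7* (0.0194), and without the 6 h library B for *MYB83* (0.0105) (edgeR adjusted *p*).

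**Figure D4:**
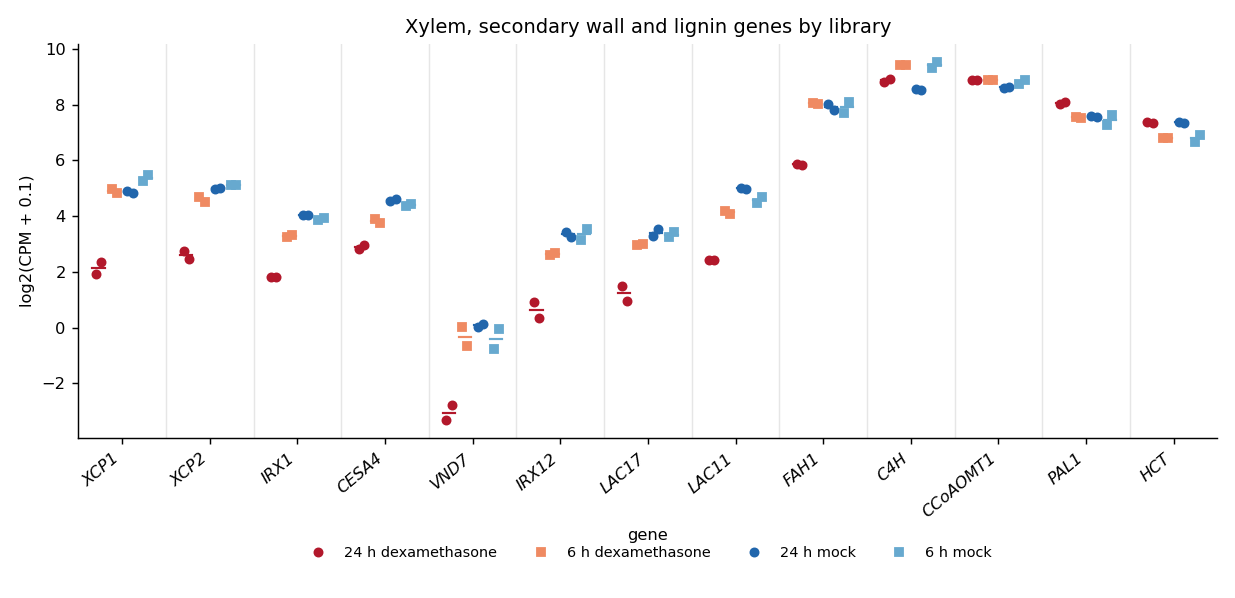
Level of xylem, secondary wall and lignin genes in each library, as log2 of CPM plus 0.1, with points for libraries A and B and a line at their mean. The 24 h dexamethasone libraries lie lowest of the 4 groups for *XCP1*, *XCP2*, *IRX1*, *IRX12*, *LAC17*, *LAC11* and *FAH1*, and not for *PAL1* or *HCT*.

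Genes for suberin, the waxy polymer of endodermis and periderm, rose more often than they fell in both arms. Of 17 tested, 9 rose and 2 fell in dexamethasone (median 0.87), and 6 of 16 rose and none fell in mock (median 0.66). The summed level of the list went the other way, with 449.9 and 436 CPM at 24 h, against 569 and 563 CPM at 6 h, of which *FAR4* made up the largest part at 6 h. *CYP86A1*, a fatty acid hydroxylase, had 13.5 and 14.03 CPM at 24 h, against 2.28 and 2.38 CPM at 6 h, a rise of 2.56 ± 0.13 with 2.09 in mock. The transporter gene *ABCG6* rose by 2.24 (1.81 in mock) and the acyltransferase gene *GPAT5* by 2.07 (1.35 in mock). *FAR4*, a fatty acyl-CoA reductase gene, went against its group, with 66.98 and 74.1 CPM at 24 h and 286 and 283 CPM at 6 h, a log2 fold change of -2.01 ± 0.05 (edgeR adjusted *p* = 1.24e-10), and *FAR1* fell by 0.71. Of 7 Casparian strip genes tested, none rose and 3 fell, *GSO2* (-1.28), *MYB36* (-0.83) and the gene of the NADPH oxidase RBOHF (-0.79). Calls did not hold without the 6 h library B for *GSO2* (0.0681) (edgeR adjusted *p* in parentheses).

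Genes that mark founder cells of lateral roots and callus moved in both directions. Of 13, 13 were tested, 3 rose and 5 fell, the auxin response factors *ARF7* (*NPH4*, 0.55) and *ARF19* (0.27) and *WOX11* (0.30) among the rises. *LBD29*, which acts below these factors in callus formation, had 14.7 and 16.4 CPM at 24 h, against 65.4 and 65.6 CPM at 6 h, a log2 fold change of -2.07 ± 0.07 (edgeR adjusted *p* = 8.40e-10). In mock *LBD29* had 52.2 and 59.7 CPM at 24 h and 46.7 and 37.6 CPM at 6 h. *LBD33* changed by -1.395 (-1.304 in mock) and the founder cell gene *GATA23* by -1.19 (0.23 in mock). *LBD16*, *LBD18* and *PUCHI* did not pass in dexamethasone (-0.15, -0.05 and -0.07). They were named after their values were seen. Leaving out the 24 h library A gave 9 falls. The call was lost without the 6 h library A for *WOX11* (0.0531), and without the 6 h library B for *WOX11* (0.0322), with the edgeR adjusted *p* in parentheses.

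Auxin response genes fell more often than they rose. Of 34 Aux/IAA, GH3 and related genes tested, 18 fell and 4 rose (median -0.31), against 3 and 5 in mock (median 0.17). *IAA14*, which represses lateral root founding, had 14.8 and 14.4 CPM at 24 h and 39.0 and 37.7 CPM at 6 h, a change of -1.39 ± 0.07 beside -0.91 in mock. *IAA7* (-1.097) and *IAA11* (-1.09) had the next largest falls. The conjugating enzyme gene *GH3.3* went the other way, with 1451 and 1358 CPM at 24 h against 860.0 and 839 CPM at 6 h, a rise of 0.73 ± 0.04. Without either 6 h library, 2 rises passed. Of 22 auxin transport and synthesis genes, 10 rose and 2 fell, and 1 fell without either 6 h library and 4 without either 24 h library. The efflux carrier gene *PIN4* had 123 and 103 CPM at 24 h, against 34.9 and 37.1 CPM at 6 h, a rise of 1.65 ± 0.08 beside a value in mock of 1.53. *YUC4*, an auxin synthesis gene, rose by 1.64 with 215 and 141 reads at 24 h and 193 and 182 at 6 h, and *LAX3*, an influx carrier of lateral root emergence, fell by 1.24, with 85.1 and 99.2 CPM against 215 and 220.0 CPM and 0.10 in mock.

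Of 31 cytokinin genes, 5 rose (16.1%, against 19.2% of all genes) and 8 fell (25.8%, against 20.5%), with 7 and 1 in mock. *ARR3*, a response regulator, rose by 1.36 (1.29 in mock), and *LOG3* and *LOG5*, whose enzymes release active cytokinin, changed by -1.099 and -0.59. *LOG5* changed by 1.02 in mock (edgeR adjusted *p* = 6.98e-04). Root stem cell genes split evenly, with 5 rises and 5 falls of 16 (31.25% each, against 19.2% and 20.5% of all genes). Without either 6 h library 3 rose, and without the 6 h library B 3 fell. *PLT1*, a root meristem gene, rose by 0.54 and *SHR* by 0.42. Of 9 root cap markers, 2 rose and 4 fell, with 1 rise when either 6 h library or the 24 h library A was left out. The NAC genes that mature the root cap fell, *NAC070* (BRN2) with 1.41 and 1.03 CPM at 24 h against 3.04 and 3.18 CPM at 6 h (-1.37 ± 0.24), *NAC015* (BRN1) with 23.0 and 22.3 CPM against 47.4 and 48.3 CPM (-1.08 ± 0.06) and *SMB* with 31.6 and 25.03 CPM against 54.6 and 56.5 CPM (-0.98 ± 0.08). *FEZ*, which promotes divisions of cap stem cells and is opposed by *SMB*, rose by 0.51. In mock *NAC015* changed by 0.80 and *FEZ* by -0.93, in each case opposite in sign to dexamethasone. Leaving out 1 library ended calls, without the 6 h library A for *FEZ* (0.105) and *LOG5* (0.0279), without the 6 h library B for *FEZ* (0.0233), and without the 24 h library A for *FEZ* (0.0247) (edgeR adjusted *p*).

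Nitrate genes changed in both directions. Of 24 tested, 7 rose, 4 of them by a log2 fold change of at least 1, and 11 fell, 3 of them by as much. By the interaction test, 8 had a lower change than in mock and 2 a higher one. *BT1*, a nitrate induced scaffold gene, had 26.9 and 37.5 CPM at 24 h, against 148 and 146 CPM at 6 h, a log2 fold change of -2.18 ± 0.10 (edgeR adjusted *p* = 8.61e-09), and -1.14 in mock. *BT2* had 84.1 and 91.5 CPM at 24 h and 227 and 224 CPM at 6 h (-1.36 ± 0.05). The assimilating enzymes, named after their values were seen, fell as well, nitrite reductase *NIR1* by 0.94 with 172 and 199 CPM against 355 and 356 CPM, and nitrate reductase *NIA1* by 0.78 with 731 and 685 CPM against 1216 and 1207 CPM. In mock the changes of *NIR1* and *NIA1* were -0.13 and 0.70. *ASN1*, asparagine synthetase, which rises when carbon is short, had 56.3 and 59.8 CPM at 24 h, against 25.5 and 26.5 CPM at 6 h, a rise of 1.16 ± 0.06, while in mock it changed by -1.47 (edgeR adjusted *p* = 0.00165). The vacuolar nitrate transporter gene *NRT2.7* rose by 1.15 (1.55 in mock), and *NRT2.6*, named after its values were seen, by 2.23 with 40 and 62 reads at 24 h and 38 and 32 at 6 h. Of 20 iron genes, 2 rose and 8 fell. *NAS2*, nicotianamine synthase, changed by -2.33, with 27 and 8 reads at 24 h and 278 and 297 at 6 h, and the citrate effluxer gene *FRD3* had 17.2 and 18.5 CPM at 24 h and 41.5 and 40.8 CPM at 6 h (-1.197 ± 0.07), with 1.64 in mock. Leaving out the 24 h library A gave 4 rises among the iron genes. Phosphate starvation genes gave 5 rises and 5 falls of 23 (21.7% each, near the 19.2% and 20.5% of all genes), with 0 and 9 in mock. *SPX1* changed by -0.42 in dexamethasone and -1.91 in mock, and *PHO2* by 0.72 and 0.11. Without the 6 h library B 3 phosphate genes rose, and without the 24 h library A 8 fell.

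Early responses to wounding, touch and stress were lower at 24 h in both arms. Of 24 such genes tested, none rose and 19 fell in dexamethasone (median -0.99), and 14 fell in mock (median -0.78). *TCH3*, a calmodulin-like gene induced by touch, had 14.9 and 13.3 CPM at 24 h and 106 and 109 CPM at 6 h, a log2 fold change of -2.94 ± 0.07 (edgeR adjusted *p* = 5.41e-11), with -2.33 in mock. *CML38* (-2.84) and *MYB15* (-2.15) had the next largest falls, with -2.35 and -3.32 in mock. Heat shock genes too fell more often than they rose in both arms, with falls of 13 of 23 in dexamethasone and 13 in mock, with medians of -0.47 and -0.95. The summed level of this list went the other way in dexamethasone, with 6798 and 6895 CPM at 24 h against 4495 and 4482 CPM at 6 h. In mock the sum was 6157 and 5795.5 CPM at 24 h and 4362.5 and 5348 CPM at 6 h. The dexamethasone median was -0.31 without the 24 h library A and -0.87 without the 24 h library B. *HSFA7A*, a heat shock factor, had 7.998 and 12.1 CPM at 24 h, against 29.1 and 26.7 CPM at 6 h (-1.45 ± 0.13), and the constitutive chaperone gene *HSC70-1* rose by 0.85, the 1 rise in the list. A total of 2 rose without the 24 h library A, with a replicate block, with counts drawn down, with upper quartile normalization and without the filter on low counts. Of 20 jasmonate genes, 1 rose and 12 fell, against 0 and 6 in mock, with medians of -0.79 and -0.55. The interaction test called 2 of them lower in dexamethasone and 0 higher. *JAR1*, which makes the active jasmonate conjugate, had 125 and 132 CPM at 24 h and 453 and 452 CPM at 6 h, a log2 fold change of -1.81 ± 0.04 (edgeR adjusted *p* = 5.49e-11), with -0.27 in mock, and the repressor gene *JAZ5* changed by -1.70 in dexamethasone and -1.72 in mock.

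Cell wall loosening genes fell more often than they rose. Of 37 expansins and xyloglucan endotransglucosylase/hydrolases tested, 9 rose, 1 by a log2 fold change of at least 1, and 15 fell, 10 by as much. In mock 6 rose and 11 fell. *TCH4* had 12.5 and 16.7 CPM at 24 h, against 119 and 119 CPM at 6 h (-3.01 ± 0.09), and *XTH18* 13.3 and 14.9 CPM against 109 and 114 CPM (-2.97 ± 0.07), beside -3.54 and -3.23 in mock. *EXPB2*, a beta-expansin gene, had 12.1 and 11.2 CPM at 24 h and 123 and 119 CPM at 6 h, a log2 fold change of -3.38 ± 0.07 (edgeR adjusted *p* = 3.06e-11), while its mock change was -0.59. The 24 h dexamethasone libraries held 10.4-fold less *EXPB2* than the 6 h libraries.

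Cell division genes moved in both directions. Of 49 tested, 11 rose (22.4%, against 19.2% of all genes) and 13 fell (26.5%, against 20.5%). Their median was -0.09 (-0.046 without the 24 h library A). The median size of the change was 0.242, against 0.287 over all genes tested. Replication genes were among the rises (*MCM4*, 0.50), B-type cyclins that act in mitosis among the falls (*CYCB2;1*, -0.85, and *CYCB2;2*, -0.84), together with the cytokinesis gene *SYP111* (-0.80), and in mock these genes changed by 0.33, -0.78, -0.64 and -0.76. The inhibitor gene *KRP2* had 5.71 and 5.59 CPM at 24 h and 2.68 and 2.72 CPM at 6 h, a rise of 1.06 ± 0.16. Without the 6 h library A, 6 rises passed. None of 20 histone genes rose and 6 fell (without the 24 h library B 4 rose, and without the 24 h library A 1), *HIS4* by 1.02 (-0.96 in mock). The histone list matched 20 of the 30 symbols sought. Among 30 tested genes annotated as histone superfamily proteins, 1 rose and 14 fell. Genes that set the upper and lower side of organs rose, 9 of 14 against 2 that fell, and 5 rose in mock. Without the 6 h library B 1 fell. *PHV* and *PHB*, class III homeodomain genes of the upper side, rose by 0.93 and 0.78, with 1.01 and 0.99 in mock. Of 20 clock genes, 7 rose and 3 fell. The evening gene *ELF4* had 35.2 and 32.9 CPM at 24 h, against 16.7 and 17.42 CPM at 6 h, a rise of 0.995 ± 0.07 where mock changed by -1.26, and the morning genes *CCA1* (-0.73), *LHY* (-0.44) and *PRR9* (-0.79) fell. Calls did not hold without the 6 h library A for *LHY* (0.0787), and without the 6 h library B for *LHY* (0.0474) (edgeR adjusted *p* in parentheses).

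Nuclear photosynthesis genes, used here as markers of green shoot tissue, gave 8 rises and 2 falls of 38 tested, with a median of -0.02 (between -0.087 and 0.072 when single libraries were left out), and 5 rises without the 6 h library B and 1 fall without either 6 h library. With all 4 libraries, 21.1% of these genes rose and 5.26% fell, against 19.2% and 20.5% of all genes. Their summed level was 371 and 352 CPM in the 24 h libraries, against 335 and 326 CPM in the 6 h libraries. *PSBR* (0.70) and *RCA* (0.65) rose and *CAB1* (-1.03) fell. Genes of the chloroplast genome went the other way. Of 88 tested of 133, none rose and 63 fell (median -1.47), and in mock 13 fell (median -0.91). Their summed level was 565 and 651 CPM at 24 h, against 1586 and 1676 CPM at 6 h. In the mock libraries it was 687 and 665 CPM at 24 h and 1629.8 and 916 CPM at 6 h, where the libraries stood apart from each other. In 1 fit with the mock libraries 35 of these genes fell, and in 1 fit of all 12 libraries 19. The study selected mRNA with oligo-dT beads. The chloroplast share of gene reads also differed within the 1 h dexamethasone group, 0.146% in library A and 0.0641% in library B. Among the 10 largest falls of all genes were ATCG00220, with 0.218 and 0.760 CPM at 24 h and 10.8 and 14.3 CPM at 6 h, and ATCG00080, with 3 and 0 reads against 98 and 119, which is 22.3-fold lower (95% exact counting interval 7.53 to 109). Genes of the mitochondrial genome gave 15 falls of 47 tested and no rise, or 2 rises without the 24 h library B. Markers of other tissues were low. None of 15 seed markers was tested, with a summed level between 0.134 and 0.490 CPM, and 3 of 9 pollen markers were tested, with 12.1 and 8.63 CPM at 24 h and 5.77 and 6.03 CPM at 6 h in sum. Of the pollen markers *ANX1* rose, by 0.94, and without the 24 h library A 1 fell.

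The other largest falls were spread over unrelated families. *AT2G24560*, annotated as a GDSL-like lipase, had 2 and 0 reads at 24 h, against 154 and 115 at 6 h, which is 41.5-fold lower (95% exact counting interval 11.4 to 344) (edgeR adjusted *p* = 3.84e-05). In mock it had 23 and 14 reads at 24 h and 68 and 80 at 6 h. *AT3G18773*, a RING/U-box protein gene, had 0 and 0.179 CPM at 24 h and 2.76 and 2.62 CPM at 6 h (-4.74 ± 0.51), and *DIR5*, a dirigent-like gene, 0 and 7 reads against 277 and 282 (-4.602 ± 0.44, with -6.06 in mock). The transcription factor genes *NAC061* (0.0544 and 0.179 CPM at 24 h, 2.53 and 2.84 CPM at 6 h) and *MYB60* (0.544 and 0.805 CPM at 24 h, 13.7 and 12.96 CPM at 6 h) changed by -4.42 and -4.27, beside -0.98 and -1.096 in mock. *AT2G43860*, a pectin lyase-like gene, changed by -4.28, *AT4G10465*, a heavy metal transport family gene, by -4.55, with -0.28 and -2.02 in mock. *PP2-B14*, a phloem protein 2 gene, had 1 and 2 reads at 24 h against 98 and 110 at 6 h, which is 21.4-fold lower (95% exact counting interval 7.22 to 105). The other rise among the 10 largest was *AT4G14730*, of the Bax inhibitor-1 family, with 4.46 and 3.75 CPM at 24 h and 0.416 and 0.267 CPM at 6 h (3.57 ± 0.30). Of the other loci that the study examined, *ACR7* had 71.5 and 70.7 CPM at 24 h, against 101 and 102 CPM at 6 h (-0.51 ± 0.05), and *ACT7*, an actin gene, 722 and 755 CPM against 560.0 and 563 CPM (0.40 ± 0.04, edgeR adjusted *p* = 3.28e-06).

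Genes that the study assigned to an LFY ChIP-seq peak moved in both directions. Of 808 tested of 894, 220 rose (27.2%, against 19.2% of all genes) and 230 fell (28.5%, against 20.5%), with a median of 0.00. With the further minimum of 1 on the log2 scale, 40 rose and 58 fell. Among those that averaged 50 reads or more, the largest rises after *AP1* were *TCP1*, a TCP family gene, with 10.99 and 13.1 CPM at 24 h and 1.13 and 1.63 CPM at 6 h (3.12 ± 0.19, -0.13 in mock), and *MYB107*, a regulator of suberin genes (2.41, 1.502 in mock). The largest falls were those of *PP2-B14*, *ENODL10* (-3.81) and *AT5G17340* (-3.14). Over all lists, as the plot of the share of members called shows, flavonoid genes had the largest share of rises and early stress genes the largest share of falls. The lists were chosen with earlier results of these data known, so that this ranking is a description only.

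**Figure D5:**
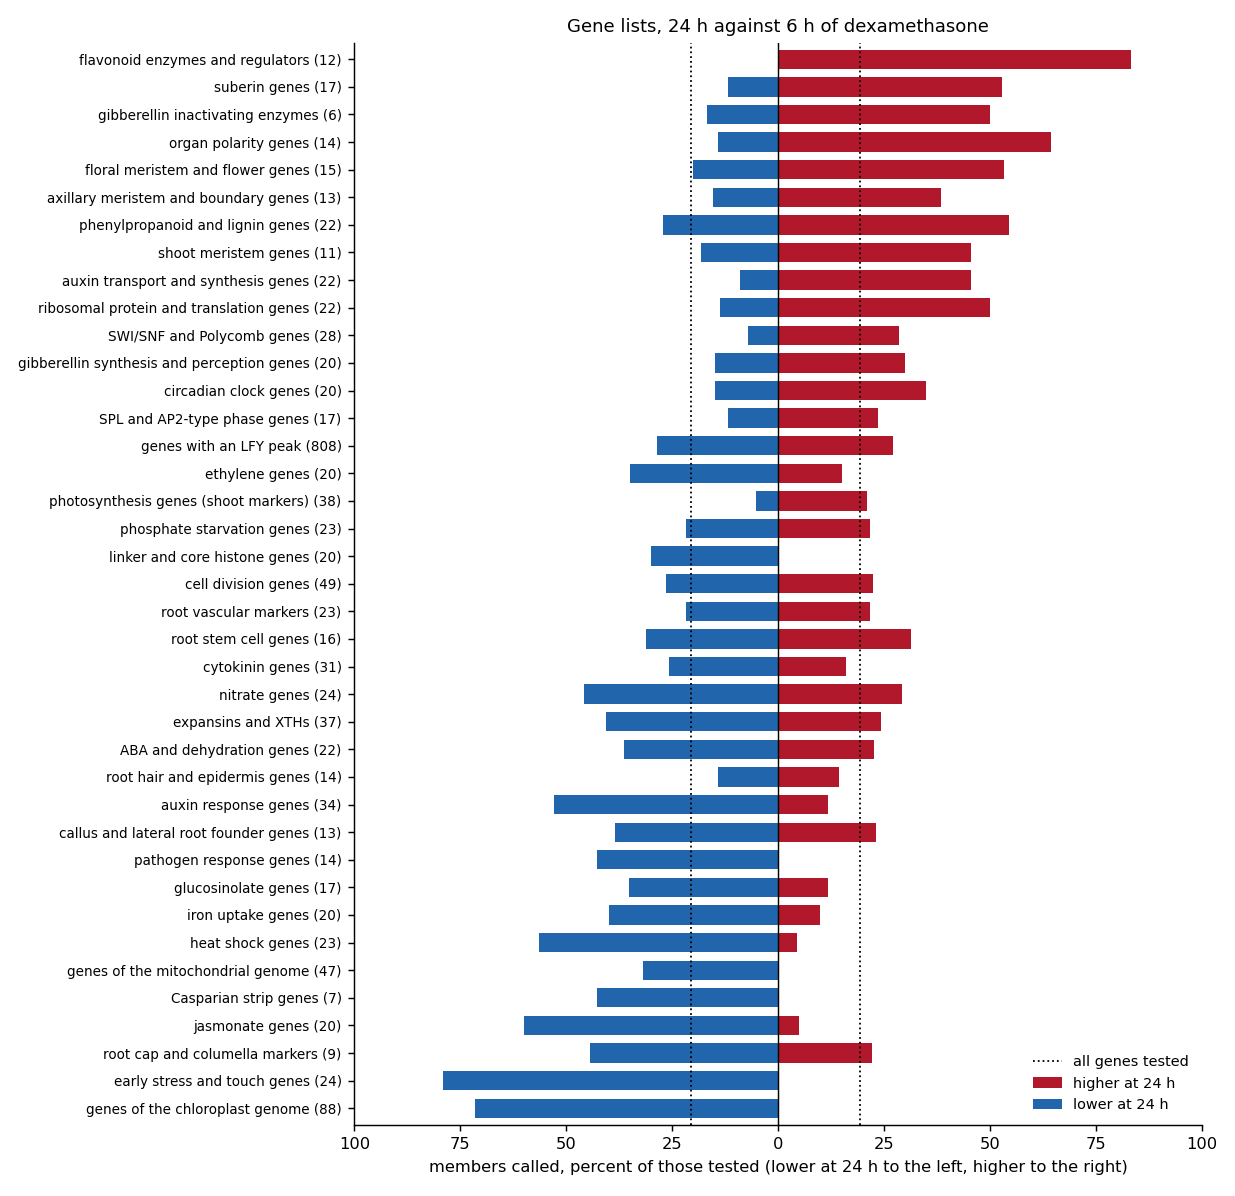
Share of the tested members of each gene list that was called higher (right) or lower (left) at 24 h than at 6 h of dexamethasone, with the number tested in parentheses and lists sorted by their median log2 fold change. Dotted lines mark 19.2% and 20.5%, the shares of all genes tested.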

How the data were processed

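RNA-seq was analysed from root explants with 35S:LFY-GR in 2 biological replicates per group. The authors trimmed reads with Trimmomatic 0.36, aligned them to TAIR10 with STAR 2.5.3a and counted uniquely mapped reads per gene with HTSeq 0.7.2 without strand, so that overlapping and antisense genes can share reads. The deposited values are raw counts per gene, and 5 tally lines per library that name no gene were left out. Multimapped reads among these were 6.90% to 22.2% of a library's reads.

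Counts were tested with edgeR 4.0.16 (filterByExpr, TMM, glmQLFit and glmQLFTest) on the 4 dexamethasone libraries, separately on the 4 mock libraries, and as an interaction over the 8 libraries of 24 h and 6 h. CPM of dexamethasone libraries were scaled within their 4 libraries, and CPM of mock libraries over the 8. Genes were named by a rule, namely the study's loci, the 10 largest rises and falls among called genes that averaged 50 reads or more and had groups that did not overlap, the 3 largest of each direction in each list by the same conditions, and any tested member of the floral, boundary, shoot meristem and gibberellin lists. Other genes are said to be named after their values were seen. Members and gene lists were chosen with earlier results of these data known. Counts of list members carry no test. Symbols were matched to the RefSeq annotation of TAIR10.1 (37051 of 37336 gene IDs), and LFY peaks come from the study's first list of annotated peaks. Of 968 list symbols, 923 were matched. Matches were fewer for histone (20 of 30), callus and founder (13 of 16), Casparian strip (12 of 16) and iron genes (28 of 34). The scripts were tested on simulated counts. Alternatives were DESeq2 1.42.0, other normalizations and filters, counts drawn down to the smallest library, fits of 8 and 12 libraries, a replicate block, and each library left out in turn, where the remaining library of a group is assumed to vary like the others. R 4.3.3 and Python 3.11.15 were used.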

Additional observations from a re-analysis of the deposited data

Results flagged for a closer look

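The change between 24 h and 6 h differed between the dexamethasone and the mock arm, by the interaction test of edgeR over the 8 libraries at an adjusted *p* under 0.01, for 1228 genes. For the genes named above that are among them, the log2 change in dexamethasone minus that in mock is given here. Floral, boundary and meristem genes with a higher change in dexamethasone were *AP1* (5.64), *HB51* (5.14), *LFY* (1.04), *MYB37* (2.67) and *CUC2* (1.95), and those with a lower change were *JLO* (-2.26) and *AIL7* (-0.48). In the gibberellin lists the difference was positive for *GA20OX1* (1.89), *GA3OX2* (1.64) and *GA2OX2* (0.86) and negative for *GA2OX6* (-1.35).

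Of the flavonoid genes named, those with a higher change in dexamethasone were *CHIL* (5.91), *FLS1* (5.50), *TT4* (5.04), *TT5* (4.1998), *MYB12* (3.71), *4CL3* (3.51), *TT7* (3.03), *UGT78D1* (1.89), *UGT78D2* (1.8001), *MYB11* (1.55) and *HY5* (1.47). Xylem and lignin genes with a lower change were *XCP1* (-2.26), *FAH1* (-2.21), *LAC11* (-2.14), *IRX12* (-2.06), *XCP2* (-1.90), *LAC17* (-1.85), *IRX1* (-1.62) and *CESA4* (-1.11), as was the suberin gene *FAR4* (-1.91). Founder cell and auxin genes with a lower change were *LBD29* (-2.48), *GATA23* (-1.44), *LAX3* (-1.35), *PUCHI* (-0.98), *IAA11* (-0.96), *LBD18* (-0.77) and *LBD16* (-0.58), and *GH3.3* (0.82) had a higher one. The cytokinin gene *LOG5* (-1.62) and the root cap genes *NAC015* (-1.89) and *NAC070* (-1.67) were lower and *FEZ* (1.43) higher.

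Among nutrient genes, *NRT2.6* (2.93), *ASN1* (2.62), *SPX1* (1.48) and *PHO2* (0.60) had a higher change and *FRD3* (-2.85), *NIA1* (-1.49), *BT2* (-1.13), *BT1* (-1.06) and *NIR1* (-0.82) a lower one. Stress, wall and clock genes gave *ELF4* (2.25) and *MYB15* (1.15), and the glucosinolate regulator *MYB34* (2.09), on the higher side and *EXPB2* (-2.80), *JAR1* (-1.56), *TCH3* (-0.62) and *ACS6* (-0.73) on the lower. Of the largest changes outside the lists and of genes with an LFY peak, *TCP1* (3.21) and *AT4G14730* (3.166) were higher, and *AT2G24560* (-4.61), *AT2G43860* (-4.02), *NAC061* (-3.46), *MYB60* (-3.19), *AT4G10465* (-2.54) and *AT5G17340* (-1.94) were lower. The outcome of this test moved with single libraries, with 613 to 3585 genes called when each of the 8 libraries was left out in turn, and 613 of them without the 24 h mock library A.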

How the results depend on the processing

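The count of genes called between 24 h and 6 h of dexamethasone (8089, 3915 higher and 4174 lower) stayed within 1.5 times of itself under DESeq2 (6477), RLE and upper quartile normalization (8049 and 8171), no filter (8448) or at least 10 counts in each library (7793), counts drawn down to the smallest total (6810), organelle genes left out (8075) and an adjusted *p* under 0.05 (10792). It moved to 4742 (2172 higher and 2570 lower) in 1 fit of the 8 libraries, to 3763 (1556 higher and 2207 lower) in 1 fit of all 12, where the spread of the other groups enters, and to 1649 (379 higher and 1270 lower) with a log2 fold change of at least 1. Leaving out single libraries gave 5269 to 9874 (2434 to 4832 higher and 2835 to 5042 lower), with 5269 without the 6 h library B. In mock the same gave 852 to 5895 (295 to 2995 higher and 553 to 2982 lower, for 2314), a range chosen after seeing the data, and for the difference between the arms 613 to 3585 (178 to 1763 higher and 435 to 1822 lower, for 1228). DESeq2 called 675 genes with a higher change in dexamethasone, against 424. The replicate letters gave no sign of pairing in dexamethasone, where the deviations of A from B correlated with r = 0.019 over 17915 genes. This check cannot show whether libraries of the same letter were handled together. A replicate block gave 8340 genes (4017 higher and 4323 lower) in dexamethasone, 2431 in mock and 964 for the difference, and in mock, where r was -0.246 over 17736 genes, a replicate block with the letters crossed gave 5021 genes (2273 higher and 2748 lower). Of the 175 genes named, 9 lost their call under DESeq2, 18 in the fit of 8 libraries and 31 in that of 12, and the log2 fold changes of genes not called took both signs when single libraries were left out for *PAN* (-0.30 to 0.12), *AGL12* (-0.58 to 0.89), *LBD18* (-0.13 to 0.013), *MYB17* (-0.91 to 0.16) and *CYP714A2* (-0.76 to 0.84). For these the cause was not tested. List counts moved by more than 1.5 times most often in the fits of 12 and of 8 libraries (40 and 30 of 82 counts). Depth limits genes with few reads most in the 24 h libraries, which hold 18511462 and 22524621 reads.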

Other observations

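Chromatin genes rose more often than they fell. Of 28 SWI/SNF and Polycomb genes tested, 8 rose (28.6%, against 19.2% of all genes) and 2 fell (7.14%, against 20.5%). None passed in mock, where the spread between libraries was wider. The median log2 fold change was alike in the arms, 0.066 in dexamethasone and 0.070 in mock, and the interaction test called 0 of these genes. The remodeler gene *SYD*, which acts with LFY at floral genes, had 402 and 384 CPM at 24 h, against 281 and 270.3 CPM at 6 h, a rise of 0.51, and its relative *BRM*, named after its values were seen, 287 and 272 CPM against 238 and 240.1 CPM, a rise of 0.22. The Polycomb gene *EMF2* rose by 0.39, the demethylase gene *REF6* by 0.36, and *TFL2*, known as LHP1, which reads the Polycomb mark, fell by 0.43. Without the 24 h library B 5 fell, and without the 6 h library B 1. Of 22 ribosomal protein and translation genes, 11 rose and 3 fell, each by less than 0.5 on the log2 scale, with 6 rises without the 6 h library A, 5 without the 6 h library B and 5 falls without the 24 h library A. In 1 fit with the mock libraries 2 of them rose. The call was lost without the 6 h library A for *BRM* (0.0111), with the edgeR adjusted *p* in parentheses.

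Some defence genes were lower at 24 h. Of 14 pathogen response genes, none rose and 6 fell, among them the flagellin receptor gene *FLS2* by 0.90 and the salicylate transporter gene *EDS5* by 1.38. None passed in mock, where the spread between libraries was wider. The median was -0.36 in dexamethasone (-0.30 without the 6 h library A) and -0.15 in mock. The interaction test called 0 of these genes. Ethylene genes gave 3 rises and 7 falls of 20, with the synthesis genes *ACS6* and *ACS2* at -1.15 and -1.26. Of 22 genes of abscisic acid and dehydration, 5 rose and 8 fell, or 2 and 4 without the 6 h library A and 5 falls without the 6 h library B. Glucosinolate genes gave 2 rises and 6 falls of 17, with 5 rises without the 24 h library B. The regulator gene *MYB34* rose by 0.9997 where in mock it changed by -1.101. Of 17 SPL and AP2-type genes, which time the change from juvenile to adult growth, 4 rose and 2 fell, between 1 and 4 falls when single libraries were left out. Root hair and epidermis genes gave 2 rises and 2 falls of 14, none without either 6 h library and 4 falls without the 24 h library A. Leaving out 1 library ended calls, without the 6 h library A for *EDS5* (0.0298) and *FLS2* (0.0240), and without the 6 h library B for *EDS5* (0.0256) (edgeR adjusted *p*).

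Among families that share a RefSeq product name, chosen after their values were seen and without a test, the FAD-binding Berberine family had 11 falls and no rise among 18 genes tested (median log2 fold change -0.89), and 3 falls and 1 rise in mock (median 0.01). Of 8089 genes called in dexamethasone, 1612 were called in the same direction in mock, 141 in the opposite direction, and 957 had a change that differed between the arms.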
